A study of Mus musculus with 12 samples.

Results

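The sites described here are Hoxb13 peaks outside promoters that also carried a Meis1 peak in the mouse ventricle. They were chosen by the deposited peak positions, as the peaks of the Hoxb13 list whose annotation class does not begin with promoter and which overlapped any peak of the Meis1 list by at least 1 bp. There were 969 such sites among the 13304 Hoxb13 peaks outside promoters (7.28%, exact binomial 95% interval 6.85 to 7.74) and among 22284 Hoxb13 peaks in all. The Meis1 list held 30534 peaks, and 949 of them overlapped the 969 sites. These positions chose the sites, so the presence of both factors is not a result.

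The peaks came from chromatin immunoprecipitation and sequencing. The tissue was ventricle, taken on postnatal day 15 from CD-1 mice, which are outbred. The 12 libraries formed 4 groups of 3, namely precipitates with an antibody to Meis1, precipitates with an antibody to Hoxb13, and the input chromatin that goes with each. All groups shared strain, age and tissue, and no genotype or treatment is named in the labels. The labels' protocol has the precipitates of both factors come from the same hearts. The replicate numbers of the factors differ, and no pairing was assumed. Each list covers the 3 precipitates of 1 factor with no value per library, so no spread between hearts can be given, and read depth is unknown. Whole ventricles hold cardiomyocytes, fibroblasts, endothelial cells and other cells, so overlap of the lists does not show that both factors bound in the same cell or on the same DNA molecule.

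Meis1 is a homeodomain protein of the TALE class that binds DNA alone or with Pbx and Hox partners, and the hexamer TGACAG is its known core. Hoxb13 is a posterior Hox protein that prefers sites rich in A and T, or with a CG step, before a short A run. Both are known in the heart as regulators of the stop in cardiomyocyte division after birth. Sites away from promoters are where most enhancers lie, and the gene given for each is the one with the nearest start site, which need not be its target.

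Sequence was read where a site overlapped a RefSeq start window, the stretch from 250 bp before to 50 bp after an annotated transcript start (GRCm38.p6, the mm10 build). The hexamer TGACAG, or its complement CTGTCA, was present in the window of 19 of the 31 sites with such a window, and 7 stretches are shown because they carry that finding at sites with various gene contexts. Each is read 5′ to 3′ along the strand of the RefSeq gene it is named for, with 24 bases on each side, and the capitals mark the hexamer. The Snx25 stretch (chr8:46152471-46152524, minus strand) lay in an intergenic site assigned to Cfap97, with the hexamer 18 bp from the Hoxb13 summit and 21 bp from the Meis1 summit. The Arrdc3 stretch (chr13:80885869-80885922, plus strand) lay in the first intron of that gene, which encodes an arrestin-like protein, with the hexamer 20 bp from the Hoxb13 summit but 233 bp from the Meis1 summit, beyond the end of the Meis1 peak. The Ptpa stretch (chr2:30441667-30441720, plus strand) lay in intron 8 of that gene, which encodes an activator of protein phosphatase 2A, with the hexamer 37 bp from the Hoxb13 summit and 158 bp from the Meis1 summit, before the start of the Meis1 peak. A second hexamer in the Ptpa window, not shown, lay 11 bp from the Meis1 summit and 206 bp from the Hoxb13 summit. The Gm52199 stretch (chr15:77014615-77014668, minus strand) lay beside the stronger of the sites assigned to Mb, the myoglobin gene, with the hexamer 278 bp from the Hoxb13 summit and 488 bp from the Meis1 summit, outside both peaks. The last 3 come from predicted genes on chromosome 17, Gm51425 (chr17:17004922-17004975), Gm6712 (chr17:17294235-17294288) and Gm5165 (chr17:17234671-17234724), each on the plus strand.
Snx25: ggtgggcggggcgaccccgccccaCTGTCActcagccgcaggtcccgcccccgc
Arrdc3: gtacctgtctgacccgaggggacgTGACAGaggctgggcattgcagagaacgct
Ptpa: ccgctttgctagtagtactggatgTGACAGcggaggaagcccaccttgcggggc
Gm52199: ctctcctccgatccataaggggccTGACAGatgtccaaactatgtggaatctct
Gm51425: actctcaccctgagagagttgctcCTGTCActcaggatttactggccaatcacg
Gm6712: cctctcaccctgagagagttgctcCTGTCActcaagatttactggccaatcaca
Gm5165: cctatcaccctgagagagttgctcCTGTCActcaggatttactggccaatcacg

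The Gm51425 and Gm6712 windows were 85.7% identical and the Gm5165 and Gm6712 windows 80.2%, so these 3 are near-copies and their sites, assigned to Zfp960, Riok2 and Zfp97, are not independent of each other. The part of this likeness in their peaks was not tested. The Gm5165 window lay under overlapping Hoxb13 peaks assigned to Zfp97, with strengths of 40.3 and 39.6, and its hexamer is counted for both.

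The Meis hexamer was more frequent under the shared sites than under Hoxb13 peaks without Meis1. The shared sites were chosen by a Meis1 peak and the hexamer is the core of Meis1 itself. The choice of sites thus favoured this difference, and it says nothing particular about sharing with Hoxb13. It was present in the windows of 61.3% of the shared sites (19 of 31, exact 95% interval 42.2 to 78.2) and of 14.5% of Hoxb13-only peaks (24 of 165, 9.55 to 20.9). The odds ratio was 9.15 (95% interval 3.69 to 23.7) and the adjusted p was 4.48e-06 (two-sided Fisher's exact test, Benjamini-Hochberg over 26 motif tests). Among all 32851 windows of the same length, 19.2% held the hexamer, so the Hoxb13-only peaks lay near that level and the shared sites above it. When 1 site was kept of each group of near-copies, 16 of 28 (57.1%) held it. When only bases inside the Hoxb13 peak were read, 16 of 31 shared sites (51.6%) and 12 of 165 Hoxb13-only peaks (7.27%) held it. Both of these counts were chosen after the data were seen.

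**Figure D1:**
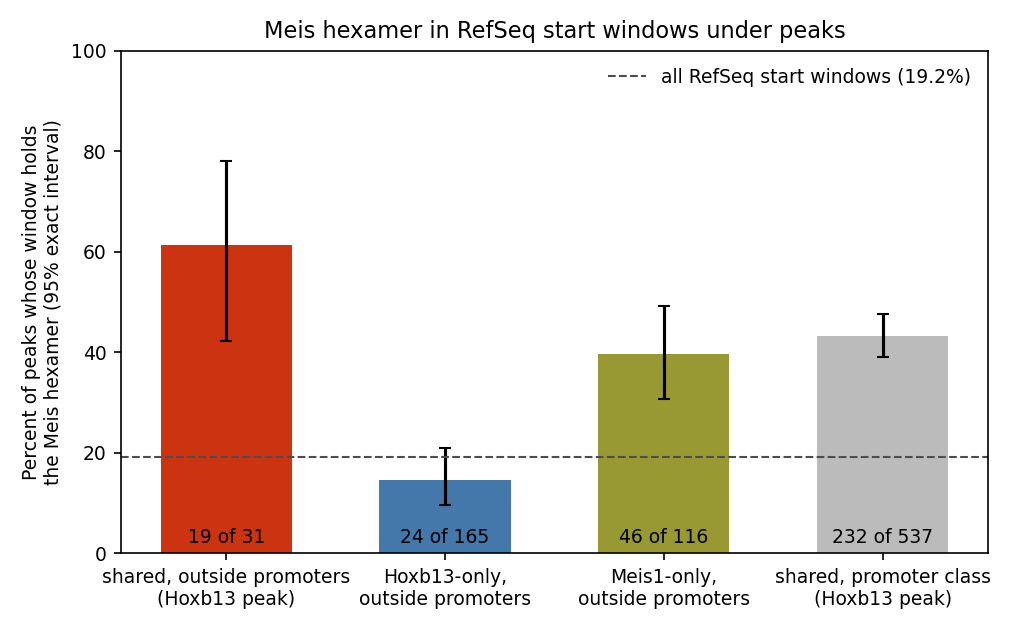
Percent of peaks whose overlapping RefSeq start window (300 bp) holds TGACAG or CTGTCA, with exact binomial 95% intervals and the counts printed in the bars; the dashed line is the share of all windows (19.2%). The shared sites outside promoters (19 of 31) stand above the Hoxb13-only peaks (24 of 165), and the Meis1-only peaks (46 of 116) and the shared promoter peaks (232 of 537) lie between them.

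The hexamer did not separate shared Meis1 peaks from Meis1 peaks without Hoxb13. Of the Meis1 peaks outside promoters, 14 of 25 shared ones (56.0%) and 46 of 116 unshared ones (39.7%) had it in their window, an odds ratio of 1.93 with a 95% interval of 0.740 to 5.14 (two-sided Fisher's exact test, adjusted p = 1). In the 19 shared sites with a hexamer, the nearest one lay a median of 73 bp from the Meis1 summit (5 to 488) and 8 were within 50 bp. In the 46 Meis1-only peaks the median was 24 bp (0 to 348) and 34 were within 50 bp. The windows of the shared sites were those that the Hoxb13 peak overlapped, and some did not reach the Meis1 peak. For the Meis1-only peaks the Meis1 peak itself overlapped the window, so the 2 medians cannot be set against each other. These distances are a description, since the windows also stop at a fixed point and cut off part of each peak.

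The letters of Hoxb13's own sites were rare in these windows, as they were in start windows at large. TCGTAAA was in 0 of 31 shared sites, which allows a share of up to 11.2%, and CAATAAA was in 1 of 31, against 1 and 9 of the 165 Hoxb13-only peaks. Of all 32851 windows, 0.597% held TCGTAAA and 4.60% held CAATAAA, so these counts lay near that level. The Pbx-Hox composite (TGATT, any base, then AT) and the Pbx-Meis composite (TGAT run on into the Meis hexamer) were in 0 of 31. Letters of factors that act in heart muscle did not differ by test either. AGATAA, read by GATA factors, was in 0 of 31 shared sites and 17 of 165 Hoxb13-only peaks (two-sided Fisher's exact test, adjusted p = 0.691). GGAATG, read by TEAD factors, was in 4 of 31 and 35 of 165, GGTGTG, read by T-box factors, in 7 and 38, and the MEF2 motif in 2 and 15. Among all windows the shares of these letters were 11.2% (GATA), 14.7% (TEAD), 19.0% (T-box) and 3.19% (MEF2). The other letters searched were TGANTCA (AP-1), AAGGTCA (nuclear receptors), the CTCF core (CC, any 3 bases, AGG, any base, GGC) and the CArG box of SRF, at 1, 2, 1 and 0 of the 31 shared sites. All motifs were read on both strands. With 31 sites, small differences were not detectable, and these windows are start sites of transcripts, not a sample of all 969 sites.

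That 31 sites had such a window was itself a difference. With chromosome 18 not used here, the shared sites overlapped one in 31 of 924 cases (3.35%, exact 95% interval 2.29 to 4.73), against 165 of 11838 Hoxb13-only peaks (1.39%, 1.19 to 1.62). The odds ratio was 2.46 (1.61 to 3.65), with an adjusted p of 6.18e-05 by a two-sided Fisher's exact test, adjusted over 7 tests chosen after the data were seen. A RefSeq start lay within 1 kb of the Hoxb13 summit at 51 of 924 sites (5.52%) and 321 of 11838 Hoxb13-only peaks (2.71%), an odds ratio of 2.10 (1.52 to 2.85, two-sided Fisher's exact test, adjusted p = 2.19e-05). Overlapping and near-copy sites were each counted and are not independent, so both p-values can be too small. A small share of the sites that the authors' annotation placed outside promoters thus lay at starts that RefSeq lists, such as that of the predicted gene Gm52199.

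The 10 sites that ranked highest for both factors lay from 1.66 to 284 kb from the nearest start. Sites were ordered by the weaker of their 2 ranks, the rank of the Hoxb13 peak in its list and that of the strongest overlapping Meis1 peak in its own. Strength here is a value the authors deposited for each peak in a column with no name, read as the signal of the narrowPeak format from its place and range. It has no unit and is compared only within a list. First came an intergenic site 61.5 kb upstream of A330074K22Rik, a RIKEN cDNA gene (chr8:120289754-120290149, mm10), with a Hoxb13 strength of 80.5 and a Meis1 strength of 393, and summits 65 bp apart. The site in the first intron of Filip1l, which encodes a filamin-interacting protein, had strengths of 78.8 and 185. An intergenic site 25.1 kb downstream of the start of Ly6c2, a surface antigen of myeloid cells, had 67.3 and 167. These 3 were strong for both factors.

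The other 7 of the leading 10 were assigned to genes of unlike function. A site assigned to Txndc11, an endoplasmic reticulum thioredoxin gene, lay in intron 19 of its neighbour Zc3h7a, with strengths of 77.2 (Hoxb13) and 152 (Meis1) and summits 22 bp apart. The site nearest to Pex2, a peroxisome biogenesis gene, lay 284 kb upstream (73.3 and 141), with summits 1 bp apart. Tle2, a Groucho-type corepressor gene, had the strongest Hoxb13 peak of all 969 sites, 4.15 kb upstream of its start (chr10:81570810-81571137), with a Hoxb13 strength of 351, a Meis1 strength of 133 and summits 81 bp apart. Gpr84, a receptor gene of innate immune cells, had a site with strengths of 57.6 and 137. Mb, the myoglobin gene of oxidative muscle, had a site with 51.3 and 94.6, summits 210 bp apart, and a second site with 19.6 and 18.9. The site assigned to Brox lay in the first intron of its neighbour Aida, 1.89 kb from the Brox start (63.7 and 91.6). Mknk2, a kinase gene that acts on the cap-binding protein eIF4E, had a site 1.66 kb upstream (45.2 and 93.7) and a second Hoxb13 peak overlapping it (35.4). At the other end of the order were sites assigned to Ric8b, Map2k5, Nckipsd, Fstl5 and Map3k20, with Meis1 strengths of 15.6 and Hoxb13 strengths from 18.1 for Fstl5 to 26.9 for Map3k20.

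Strength for one factor said little about strength for the other. Over the 969 sites Spearman's rho between the strengths was 0.150, a description over peaks that share libraries and are not independent. Of the sites, 492 were in the stronger 50% of the Hoxb13 list, 744 in that of the Meis1 list and 397 in both. Only 8 sites were among the 1000 strongest peaks of both lists, and 89 among the 5000 strongest of both. Some sites ranked far higher for 1 factor than for the other. Chosen after their values were seen, these were the site of Lbr, a nuclear membrane receptor gene, which lay in an exon of its neighbour Enah (Hoxb13 347, Meis1 18.1), and a site 5.02 kb downstream of the start of Hes1, a Notch target gene (141 and 24.97). The reverse held at the site of En1, a homeobox gene, 155 kb downstream of its start (28.8 and 446), at a site in intron 5 of Lclat1, a cardiolipin remodelling gene (18.6 and 392), and at one 26.3 kb before the start of Ryr2, whose channel releases calcium from internal stores (19.8 and 382). At En1 the Hoxb13 peak still ranked 4607 of 22284, and at Hes1 the Meis1 peak ranked 7333 of 30534.

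**Figure D2:**
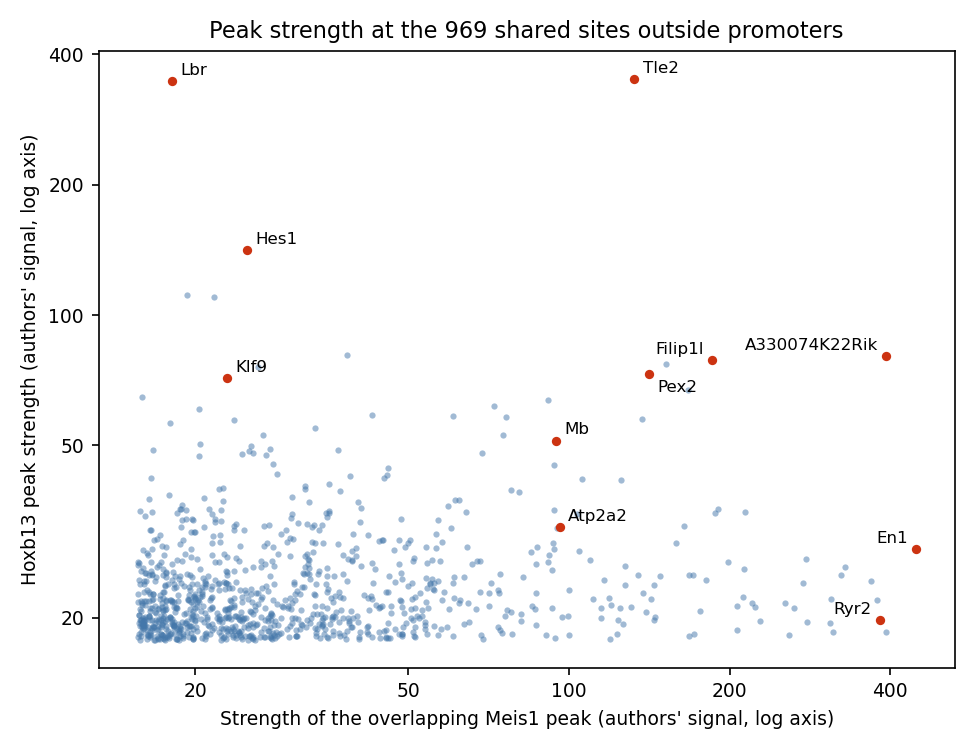
Hoxb13 peak strength against the strength of the strongest overlapping Meis1 peak at the 969 sites (authors' signal, both axes logarithmic), with 11 sites in red. Most sites lie in the lower left corner, Tle2 and Lbr stand highest on the Hoxb13 axis at 351 and 347, and En1 lies farthest right at a Meis1 strength of 446.

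Shared sites were taken more often from the strong peaks of each list, as values with no test since strength decides which peaks are listed. The Hoxb13 strength of the shared sites had a median of 21.5 (10% of sites below 18.3, 90% below 33.5), against 20.1 for 12335 Hoxb13-only peaks outside promoters and 26.5 for the 799 shared promoter peaks (8.9% of 8980 promoter peaks). Of the weakest 10% of Hoxb13 peaks outside promoters 4.36% were shared (exact 95% interval 3.33 to 5.60), and of the strongest 10%, 11.6% (9.90 to 13.4). The gap was wider on the Meis1 side. The 939 Meis1 peaks of the shared sites that lay outside promoters had a median strength of 25.4, against 18.4 for 27533 Meis1-only peaks. The share of Meis1 peaks that were shared went from 1.30% in the weakest 10% to 8.39% in the strongest 10%, where 3.3% of all 28478 Meis1 peaks outside promoters were shared.

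The summits of the 2 factors were often apart within a shared site. In 982 overlapping pairs the median distance was 157 bp (25% of pairs below 73, 75% below 239), and it was bounded at 339 bp by the peak widths. Of the pairs 42 (4.28%) had summits within 10 bp, 177 (18.0%) within 50 bp and 332 (33.8%, exact 95% interval 30.9 to 36.9) within 100 bp. In steps of 50 bp from 0 the counts were 173, 156, 148, 135, 149, 125 and 96, the last step being cut short by the limit of 339 bp. The overlap rule by itself yields some close summits, and the level it yields was not computed. The counts of close summits, and the sites named below for them, are thus a description. Of the pairs at promoters, 256 of 809 (31.6%) were within 100 bp. The odds ratio was 1.10 (95% interval 0.900 to 1.35, two-sided Fisher's exact test, adjusted p = 0.337). The overlap rule bounded the distances in both sets, so the test cannot show whether binding at promoters and elsewhere was alike.

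**Figure D3:**
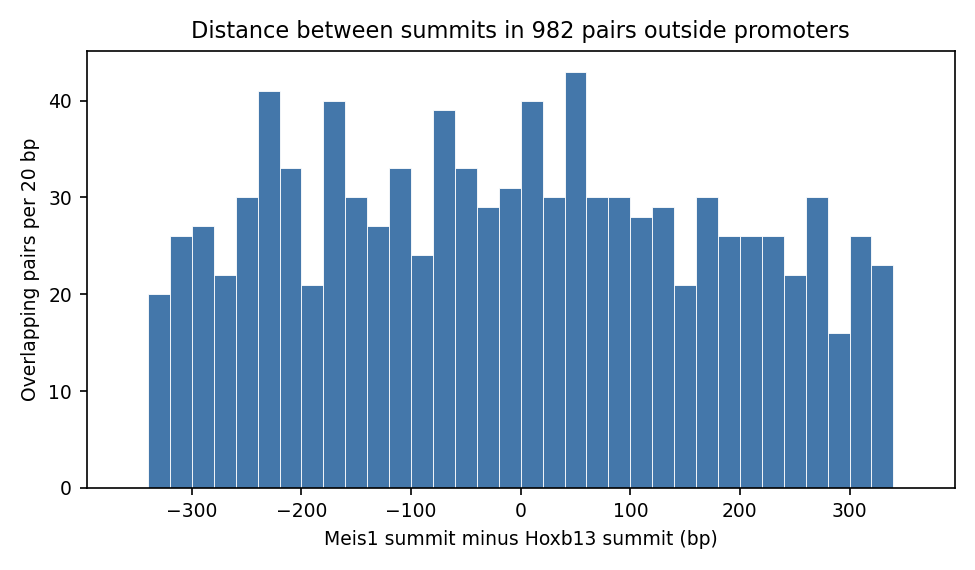
Signed distance from the Hoxb13 summit to the Meis1 summit in 982 overlapping pairs outside promoters, counted in steps of 20 bp along the plus strand. The pairs spread over the whole range that an overlap allows, to 339 bp on either side, with a median distance of 157 bp.

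At 7 sites both summits lay at the same base, and their genes were of differing kinds. One lay in the first intron of the pseudogene Speer8-ps1 (Hoxb13 24.1, Meis1 55.0) and 2 lay near the RIKEN cDNA genes 1700072O05Rik (21.3 and 33.5) and E130006D01Rik (23.2 and 20.3). Another lay in intron 9 of Ric8b, a chaperone gene of G protein subunits (21.3 and 131), a gene that also held a site of lowest rank. A further one lay in the first intron of Rbm20, the cardiac splicing factor whose targets include titin (19.5 and 25.7). The last 2 were assigned to Nova1 and Slitrk1, genes best known from neurons. Ttn itself, which encodes titin, had a site in exon 232 with summits 6 bp apart (26.5 and 17.1) and another in intron 2 (64.5 and 15.9). At the edge of the rule, the overlap was 1 bp at the sites of Fgd2 (chr17:29422734-29423129) and Lpp. Just outside it, a Hoxb13 peak of Irx4, a ventricular homeobox gene, abutted a Meis1 peak with a gap of 0 bp (strengths 20.8 and 97.6). In all, 233 Hoxb13-only peaks had a Meis1 peak within 100 bp.

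Shared sites were less often in exons other than the first and in 3' untranslated regions than Hoxb13-only peaks were. The sites were chosen by a Meis1 peak, and only 1.22% of Meis1-only peaks lay in 3' untranslated regions and 2.51% in such exons. This difference was thus favoured by the choice, and says nothing particular about sharing. Of the Meis1 peaks of shared sites, 1.81% and 3.30% lay there. In 3' untranslated regions lay 21 of 969 sites (2.17%) and 643 of 12335 Hoxb13-only peaks (5.21%), an odds ratio of 0.403 (95% interval 0.246 to 0.625, two-sided Fisher's exact test, adjusted p = 4.19e-05 over 8 classes). In exons other than the first lay 45 sites (4.64%) and 6.90% of the Hoxb13-only peaks, an odds ratio of 0.657 (0.472 to 0.895, two-sided Fisher's exact test, adjusted p = 0.0249). The first call was lost when summits had to lie within 100 bp, and the second under 4 of 6 other definitions of a shared site. Most sites were intergenic (437, 45.1%), in introns other than the first (257, 26.5%) or in first introns (153, 15.8%). The odds ratios of these classes were from 1.11 to 1.13, with adjusted p of 0.196 or more by a two-sided Fisher's exact test. Neighbouring peaks are not independent, so these p-values can be too small.

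Against Meis1 peaks without Hoxb13 the shared sites lay nearer to genes, a difference that the choice of sites favoured. A Meis1 peak was shared only where a Hoxb13 peak lay. Of the Hoxb13-only peaks, 42.1% were intergenic, 14.4% in first introns and 4.84% just downstream of a gene. The tests below thus reflect how the lists differ and show nothing particular about sharing. Of the 939 Meis1 peaks of shared sites 45.2% were intergenic, against 59.4% of 27533 Meis1-only peaks (odds ratio 0.563, 0.493 to 0.643, two-sided Fisher's exact test, adjusted p = 5.48e-17). First introns held 16.2% and 10.7% (odds ratio 1.62, two-sided Fisher's exact test, adjusted p = 1.22e-06), and the class just downstream of a gene 3.73% and 0.926% (odds ratio 4.14, two-sided Fisher's exact test, adjusted p = 1.71e-10). The median distance to the nearest start was 23.7 kb for the shared sites, 22.4 kb for Hoxb13-only peaks and 71.9 kb for Meis1-only peaks. Beyond 100 kb lay 14.6% of the shared sites, 17.4% of the Hoxb13-only peaks and 42.7% of the Meis1-only peaks. The shared sites thus had the distances of the Hoxb13 list, from which they were taken. By distance, 5.92% of Hoxb13 peaks at 1 to 3 kb were shared, 8.02% at 10 to 50 kb and 6.16% beyond 100 kb.

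**Figure D4:**
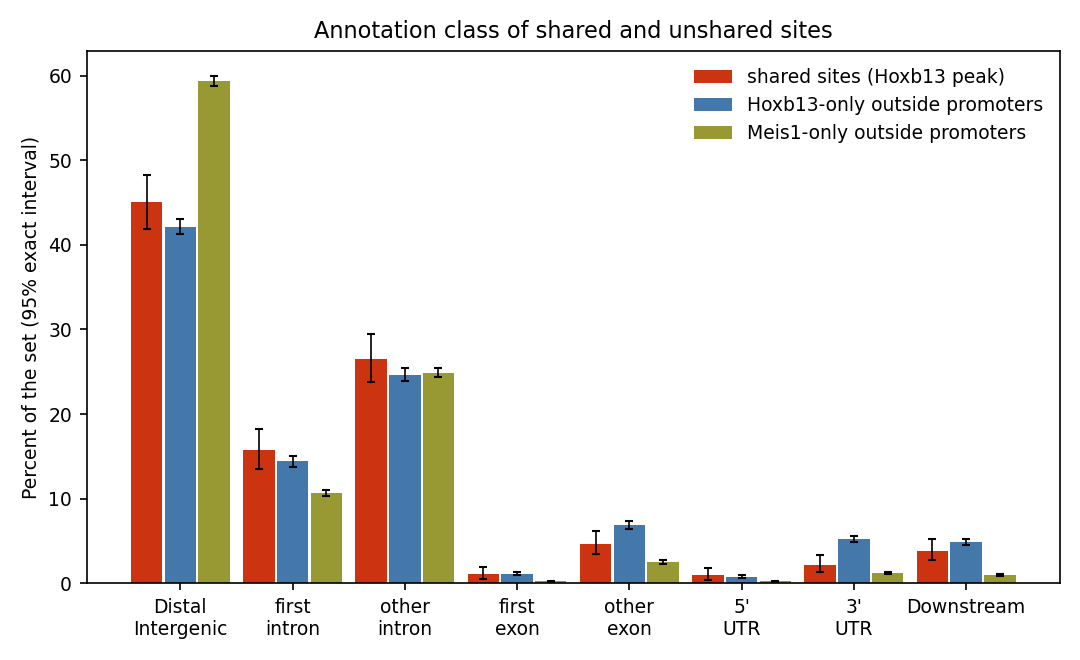
Percent of each set in 8 annotation classes, for the 969 shared sites (by their Hoxb13 peak), 12335 Hoxb13-only and 27533 Meis1-only peaks outside promoters, with exact binomial 95% intervals. The shared sites follow the Hoxb13-only peaks in most classes, are lower in 3' UTR (2.17% against 5.21%), and are less often intergenic than the Meis1-only peaks (59.4%).

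The sites were assigned to 804 genes, of which 684 had 1 site. When sites within 100 kb of the next were joined, there were 768 loci, 640 of them with 1 site, and 18 loci with 4 or more sites held 85 of the 969. Of the 465 sites in an intron or exon, the annotation named the surrounding gene for 429, and in 92 of these it was a different gene from the one assigned by the nearest start. The shared part of Hoxb13 peaks outside promoters was lowest on X (2 of 105, 1.90%), and on the autosomes it ran from 4.93% on chromosome 11 to 9.86% on chromosome 16.

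The genes with the most sites included neighbouring genes of nuclear body proteins and a cardiac splicing factor gene. C130026I21Rik, a gene of the Sp140 group of nuclear body proteins, had 10 sites over 75.6 kb (chr1:85231274-85306905), with Hoxb13 strengths from 18.7 to 49.8 and Meis1 strengths from 17.8 to 38.9. Sp110, a relative nearby, had 5 sites within 2.29 kb that shared 3 Meis1 peaks. Of the Hoxb13 peaks outside promoters assigned to these genes, 10 of 23 and 5 of 9 were shared. Rbm20 had 5 sites over 159.7 kb among 22 Hoxb13 and 20 Meis1 peaks outside promoters. Trak1, an adaptor gene of mitochondrial transport, had 4 sites, the strongest with a Hoxb13 strength of 58.4 and a Meis1 strength of 60.6. Without the 18 crowded loci, 6.74% of Hoxb13 peaks outside promoters were shared, which was chosen after the data were seen. Whether the crowded loci, which hold the sites of these genes, lie in repeated sequence was not tested.

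Genes with a shared site were more often bound at the promoter too. Among protein-coding genes with any Hoxb13 peak outside promoters, a Hoxb13 promoter peak was listed at 388 of 689 genes with a shared site (56.3%) and at 2148 of 4833 without (44.4%), an odds ratio of 1.61 (two-sided Fisher's exact test, adjusted p = 4.15e-08). A Meis1 promoter peak was listed at 135 (19.6%) and 560 (11.6%), an odds ratio of 1.86 (two-sided Fisher's exact test, adjusted p = 6.60e-08). The genes with a shared site also had more Hoxb13 peaks, a median of 3 outside promoters against 1. Among genes with exactly 1 such peak the calls were lost, at 44.6% against 40.2% for Hoxb13 (odds ratio 1.20, 0.869 to 1.64) and 13.1% against 9.55% for Meis1 (odds ratio 1.43, 0.867 to 2.27), with adjusted p of 0.312 and 0.164 by a two-sided Fisher's exact test.

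Genes of calcium handling, the sarcomere and cardiac transcription had a shared site in a larger part of their lists than protein-coding genes at large. Of all 21883 protein-coding genes, 3.15% had a shared site assigned. The part was 10 of 30 genes of calcium handling and ion channels (33.3%), 8 of 30 of the sarcomere (26.7%) and 7 of 29 cardiac transcription factors (24.1%). These counts are descriptions with no test, since the lists were made with earlier results of these data known. Genes with large loci can receive more peaks, which was not tested here. Peaks of both factors outside promoters were assigned to 15.7% of all protein-coding genes but to 24, 19 and 18 genes of these 3 lists. Of genes with both, a shared site was present at 19.9% of all and at 41.7%, 42.1% and 38.9% in the lists. By that measure other lists lay as high, with 45.5% for Hippo and growth factor genes (5 of 11), 44.4% for endothelial genes (4 of 9) and 40.0% for smooth muscle and pericyte genes (2 of 5), so these 3 lists did not stand apart. With summits within 100 bp, the counts were 3, 2 and 0, against 1.18% of all genes, and with sites within 50 kb of the start 10, 7 and 5, against 2.31%.

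**Figure D5:**
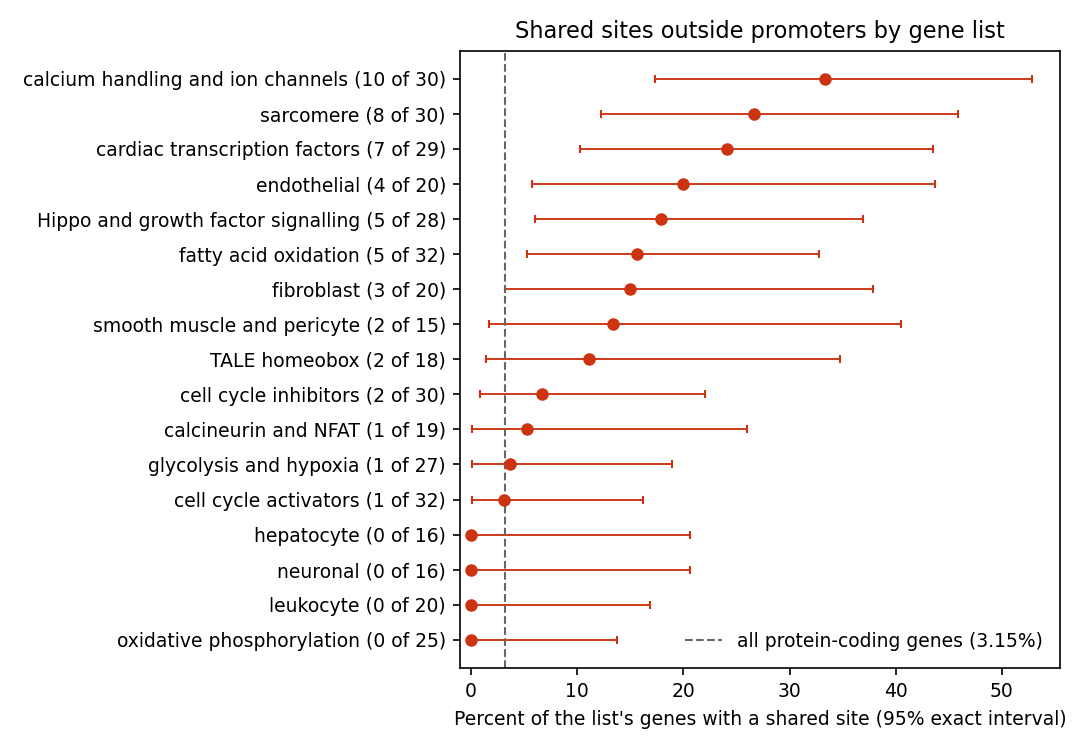
Percent of the genes of 17 lists with a shared site outside promoters, with exact binomial 95% intervals and counts beside the names; the dashed line is the share of all protein-coding genes (3.15%). Calcium handling (10 of 30), sarcomere (8 of 30) and cardiac transcription factor genes (7 of 29) lie farthest right, and the intervals of the small lists are wide.

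The calcium genes covered the pump, its inhibitor, the release channel and the exchanger. At Atp2a2, the sarcoplasmic reticulum calcium pump, the site lay 8.48 kb upstream (chr5:122510702-122511097), with a Hoxb13 strength of 32.4 and a Meis1 strength of 96.2. Slc8a1, the sodium-calcium exchanger, had a site in its first intron (27.7 and 39.9) with summits 97 bp apart. The site of Pln, the small protein that inhibits the pump, lay 8.32 kb upstream in an intron of Cep85l (23.9 and 54.9), with summits 332 bp apart, near the limit of the rule. Ryr2 had the strong Meis1 site upstream and a second in its first intron (18.2 and 27.7). Kcnq1, Kcnip2, Cacna1c, Hcn4 and Asph also had sites, with Hoxb13 strengths at their best-ranked sites from 18.1 at Asph to 21.1 at Hcn4.

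The sarcomere genes with a site were of the thin filament, the Z-disc and the thick filament. Tnnt2, cardiac troponin T, had a site over its exon 9 (28.4 and 85.0) and another in intron 4 (24.3 and 38.4). Csrp3, a LIM protein of the Z-disc, had a site just downstream of a gene (26.8 and 42.9). Actn2, the Z-disc alpha-actinin, had a site in its first intron 2.54 kb from the start (26.4 and 128) with summits 24 bp apart. The other 5 were Ttn, Tcap, Myh7, Pdlim5 and Fhod3, with Hoxb13 strengths for their best-ranked sites from 19.1 at Fhod3 to 26.5 at Ttn. The Tcap site lay in an exon of its neighbour Stard3.

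Of the 7 cardiac transcription factors, 4 had a best site with a Meis1 strength above the 25.4 that was the median of shared Meis1 peaks. Tead1, the DNA-binding partner of the Hippo effector Yap, had a site 22.6 kb upstream (23.8 and 144) and another in intron 2 (23.0 and 27.4). Prox1 had a site in an intron (23.5 and 26.6), and Klf15, a regulator of cardiac metabolism, an intergenic one 41.6 kb downstream of its start (22.9 and 86.8). The others were Myocd, Mef2a, Tbx20 and Gata4, with Meis1 strengths of 21.96, 19.5, 144 and 16.5. In the TALE class that Meis1 belongs to, 2 of 18 genes had a site. At Meis2, the close relative of Meis1, it lay 1.99 kb upstream in a first exon (34.9 and 35.2) with summits 78 bp apart, and at Mkx, 112 kb upstream in an intron of Armc4.

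The lists of fuel use held 5, 1 and 0 genes with a site, and the differences between them were not tested. Of 32 fatty acid oxidation genes 5 had one, among them Pdk4, a kinase that limits glucose oxidation (26.7 and 27.0), Ppara, the nuclear receptor of fatty acid oxidation, 10.1 kb upstream (25.2 and 171), and Fabp3, the heart fatty acid-binding protein, in an exon (22.9 and 58.3). The other 2 were Ppargc1b and Lpl. Of 27 glycolysis and hypoxia genes, Egln3, an oxygen-sensing hydroxylase, had one in its first intron (25.1 and 135). Of 25 oxidative phosphorylation genes 0 had one, and 3 of those genes had peaks of both factors outside promoters at all.

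Of the cell cycle lists, 1 of 32 activators (3.12%) and 2 of 30 inhibitors (6.67%) had a shared site, beside 3.15% of all genes. Among activators Ccnd3, a D-type cyclin, had one in its first intron (35.6 and 19.2), and among inhibitors Btg2, an antiproliferative gene, had 2 that overlapped the same Meis1 peak (25.5 and 21.98 for Hoxb13, 17.6 for Meis1). Lats2, a Hippo kinase that was in the list of inhibitors too, had one in an intron (18.5 and 21.0). Of 28 Hippo and growth factor genes 5 had one, with the insulin receptor gene Insr (27.1 and 67.4), Tead1, Vgll4, Nrg1 and Lats2. Of 19 calcineurin and NFAT genes Ppp3ca, the catalytic subunit of calcineurin, had one in its first intron (27.1 and 57.3).

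Markers of other ventricular cell types had sites as well, to be read beside the 3.15% of all protein-coding genes. The endothelial list held 4 of 20 (20.0%), namely Egfl7 (25.2 and 74.4), Ephb4 with summits 1 bp apart (22.6 and 33.5), Pecam1 (22.4 and 212) and Kdr. The fibroblast list held 3 of 20 (15%), with the collagen gene Col1a1 6.84 kb upstream (25.4 and 48.6), Dcn (22.3 and 24.4) and Loxl1 (23.7 and 21.5). The smooth muscle and pericyte list held 2 of 15 (13.3%), Myocd and Mylk (23.0 and 16.1). Leukocyte (20 genes), neuronal (16) and hepatocyte (16) lists held 0. In these lists 0, 6 and 4 genes had peaks of both factors outside promoters at all, so the leukocyte list could hold none. For 16 genes, 0 still allows a share of up to 20.6% by the exact 95% interval. No RNA was measured here, so these counts say which genes had a site and not which cells it was bound in.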

How the data were processed

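Of the 12 libraries, the values come from 2 deposited peak lists, 1 per factor. The submitters' processing notes name deepTools 1.6, ChIPseeker, Picard and Bowtie2 2.2.3, and mm10 as the build; for the peak caller and threshold, nothing is given in the sources used here. Peak strength was read as a signal value and a second value as a score, both deposited by the authors; per the file headers neither has a name beyond a column number, so this reading is an assumption, and the score was not used. The sites and gene lists were chosen with earlier results of these data known. Overlaps, exact binomial intervals and Fisher's exact tests (threshold 0.05 after Benjamini-Hochberg) were computed with Python 3.11.15, pandas 2.3.3, NumPy 2.4.6 and SciPy 1.17.1, and were checked on simulated data. Motifs were to be read within 100 bp of each summit; no genome was used here, so RefSeq start windows of 300 bp stood in. Genes named were those of the 10 best-ranked sites, up to 3 per list, the 5 with most sites, the 5 closest and 5 lowest-ranked sites, and sites with summits within 10 bp; other list members are named to complete a list. Peaks were the units of all tests, and the input libraries entered none. Reciprocal overlap, summit distance, distance from starts, strength, merged peaks and strata were tried as alternatives. Some genes that this rule selects are not reported here.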

Additional observations from a re-analysis of the deposited data

How the results depend on the processing

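The number of shared sites depended on how overlap was defined: it was 969 (7.28% of Hoxb13 peaks outside promoters) at 1 bp, 413 (3.10%) with a reciprocal overlap of 50%, 332 (2.50%) with summits within 100 bp and 397 (8.09%) in the stronger 50% of each list. Without loci of 4 or more sites, a choice made once the data were known, the share was 6.74%. The odds ratio of exons other than the first against Hoxb13-only peaks kept its direction but lost its call with reciprocal overlap (0.624), summits within 100 bp (0.558), sites at least 3 kb from a start (0.753) and the stronger 50% (0.515); that of 3' untranslated regions lost its call with summits within 100 bp (0.404). Classes that passed no test changed direction: other introns with reciprocal overlap (0.867), first introns in the stronger 50% (0.995), the 5' untranslated region with summits within 100 bp (0.772), and first exons with reciprocal overlap (1.30), summits within 100 bp (1.64), sites at least 3 kb away (1.14) and the stronger 50% (1.11). The cause was not tested. The share of all protein-coding genes with a shared site was 1.18% with summits within 100 bp and 2.31% within 50 kb of a start. The Meis hexamer kept its call against Hoxb13-only peaks in all 5 alternatives run, with odds ratios from 7.71 to 14.8. No call against Meis1-only peaks was made in any of 4. Narrower windows, whole peaks and the removal of repeats need peak sequence and were not run. No paired analysis was possible because the lists hold no value per library, although the labels' protocol has both factors' precipitates come from the same 3 hearts; for the same reason no library could be left out in turn.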
